A study of Gossypium barbadense with 4 samples.

Results

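The probe sets described here stood for the enzymes that lead into gossypol synthesis: (+)-delta-cadinene synthase and farnesyl diphosphate (FPP) synthase. They were taken from the deposited array values by name. A probe set was included when the study's gene description held "cadinene", or "farnesyl" together with "synth", and both cadinene synthase isozymes named XC14 and XC1 were included by identifier. The rule found 4 of the 24029 probe sets of the array that are not controls, 2 for cadinene synthase and 2 described as FPP synthase, and no other probe set carried the same cluster number. Descriptions were at hand for 1439 probe sets, all of them listed by the study as different between the genotypes, so other members of both gene families on the array may be missing from this account.

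Transcript levels were measured in anthers and ovules of *Gossypium barbadense* at 0 days post-anthesis (DPA), that is, on the day of flowering. The mutant 57-4 is a semigametic line that arose naturally in Pima S-1, and semigamy is the condition in which the sperm nucleus enters the egg but does not fuse with its nucleus. Pima S-1 is the non-semigametic cultivar that served as its isogenic line. Each tissue of each genotype was hybridized to 1 Affymetrix Cotton Genome array, so that there were 4 arrays in all, with RNA pooled from 3 field replicates of 10 flowers. Whole anthers and whole ovules hold many cell types, and in such tissue fewer cells of a type and less RNA per cell cannot be told apart.

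Gossypol is a yellow terpenoid aldehyde dimer that cotton stores in its pigment glands and that defends the plant against insects and pathogens. The mevalonate pathway makes isopentenyl diphosphate, FPP synthase joins isoprene units to FPP, and delta-cadinene synthase closes the ring of FPP in the first step committed to gossypol and related sesquiterpenes. Cytochrome P450 enzymes, an alcohol dehydrogenase, a 2-oxoglutarate-dependent dioxygenase and a glyoxalase-like enzyme act later in the pathway. FPP also feeds sterols and the prenyl groups of proteins, so FPP synthase serves more than gossypol, whereas cadinene synthase sits on the gossypol branch. In *G. arboreum* a WRKY transcription factor, GaWRKY1, binds the promoter of a cadinene synthase gene.

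The values are MAS5 signals, the linear brightness that the array software gives for a probe set. Signals under 50 were set to 50 before ratios were formed, so a fold is a lower bound where 1 signal was under 50 and is not given where both were. Medians of all probe sets lay between 54.6 and 76.1 on the 4 arrays, and between 12411 and 14673 probe sets reached 50. Over 9 hybridization controls of bacterial or phage origin, which are added at fixed amounts, the median log2 of 57-4 over Pima S-1 was 0.47 for the anther pair and 0.40 for the ovule pair. For the actin, ss1 and ubq11 control transcripts of *G. hirsutum*, the ratio of the 3' to the 5' signal spanned 11.7 to 17.4 (57-4) and 5.64 to 9.20 (Pima S-1) for anthers, and 14.5 to 21.1 (57-4) and 4.18 to 11.8 (Pima S-1) for ovules. The ratio, which rises as the RNA or cRNA gets shorter, was higher in 57-4 for each of the 3 transcripts in both tissues. A second, dimmer set of controls for these transcripts (Gra) had 5' signals of 20.5 to 125.0 and did not share this direction. Its ratio was lower in 57-4 for ubq11 in both tissues, and for actin and ss1 the direction differed between tissues. The *G. hirsutum* ratio separates the same arrays as every genotype ratio given here, and its part in them was not tested. The tissue labels could not be checked on the anther side, because no described probe set carried a pollen, anther or tapetum word. Among 16 described with ovule, fibre or late seed words, the tissue test explained below called 4 higher in ovules (7.39% of all tested). It called 0 of them higher in anthers (8.42% of all). At least 2-fold higher in ovules were 2 of 15 measured in 57-4 (7.26% of all measured) and 6 of 15 in Pima S-1 (8.6% of all).

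Cadinene synthase XC14 (U23205) had the widest tissue difference of the 4. Its signal was 60.2 (57-4) and 14.5 (Pima S-1) in anthers and 4904.1 (57-4) and 4946.3 (Pima S-1) in ovules. The transcript was thus close to or below the floor in anthers and bright in ovules of both genotypes. The identifier of the probe set ends in _x_at, which marks probes that can also bind other transcripts, and the sequence behind this one came from *G. arboreum*, so the signal may include further cadinene synthase genes.

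Cadinene synthase XC1 (CO107110) was dim. Its signal was 7.8 (57-4) and 1.3 (Pima S-1) in anthers and 112.2 (57-4) and 19.7 (Pima S-1) in ovules. The signal reached 50 on the 57-4 ovule array only. The annotation printed with the array calls this sequence weakly similar to an *Arabidopsis* myrcene/ocimene synthase, another terpene synthase, so its name as a cadinene synthase rests on the study's description.

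The FPP synthase (AI054617) followed the tissue order of XC14. Its signal was 16.5 (57-4) and 77.2 (Pima S-1) in anthers and 440.5 (57-4) and 828.2 (Pima S-1) in ovules. Both ovule signals lay above both anther signals, and within each tissue the 57-4 signal was the lower of the pair. The array annotation also describes this sequence as FPS1-like. The identifier ends in _s_at, which means that all its probes can bind several transcripts, usually of the same gene family.

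The sequence described as FPP synthetase 1 (DT466688) had another pattern. Its signal was 317.8 (57-4) and 2303.5 (Pima S-1) in anthers and 889.5 (57-4) and 1020.8 (Pima S-1) in ovules. The Pima S-1 anther array gave its highest signal and the 57-4 anther array its lowest, with both ovule arrays between them. The study named it by similarity to an FPP synthase of *Parthenium*, but the annotation printed with the array calls the same sequence weakly similar to an *Arabidopsis* protein of unknown function. Its identity as an FPP synthase is therefore uncertain, and it is called by its GenBank identifier from here on. The name of its probe set also ends in _s_at, so the signal may include several transcripts.

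**Figure D1:**
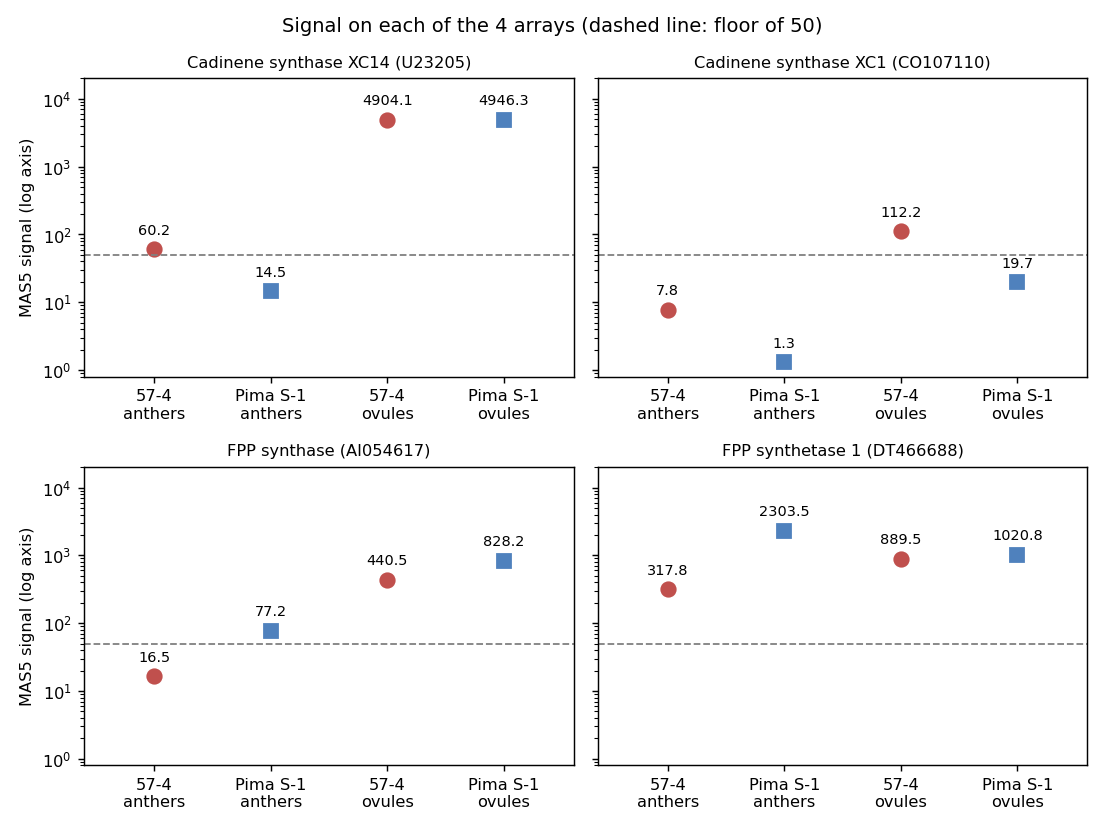
MAS5 signal (log axis) of the 4 probe sets on each of the 4 arrays, with 57-4 as circles, Pima S-1 as squares and the floor of 50 as a dashed line. XC14 and AI054617 were bright in ovules and dim in anthers of both genotypes, XC1 passed the floor only in 57-4 ovules, and DT466688 was highest in Pima S-1 anthers.

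Tissue preference was tested across all probe sets, since the study had listed these 4 for the genotype contrast and not for tissue. The fit (limma on log2 signals, with tissue and genotype as terms) took the 57-4 and the Pima S-1 array as the 2 arrays of a tissue, and p-values were adjusted by the Benjamini-Hochberg method over 17179 probe sets with at least 1 signal of 50 or more. The spread in this fit is the disagreement between the genotypes together with array noise, not that between plants, and it has 1 residual degree of freedom for a probe set, which limma pools across probe sets. An exact permutation test of a single probe set, 2 arrays against 2, could not go below a two-sided p of 0.333. At an adjusted p under 0.05 the fit called 1447 probe sets higher in anthers (8.42%) and 1270 higher in ovules (7.39%), so 46.7% of the calls were higher in ovules. Scaling on the hybridization controls changed the numbers to 2803 and 1003, and 26.4% of the calls were higher in ovules.

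Of the 4 probe sets, 2 were called, both higher in ovules. XC14 had a log2 ratio of anthers to ovules of -6.49 (SE 0.20, limma adjusted p = 1.43e-07). Taken within each genotype, its signal was 81.5-fold higher in ovules than in anthers of 57-4 and at least 98.9-fold higher in ovules than in anthers of Pima S-1. Only 3 of 16289 measured probe sets, XC14 included, had a tissue ratio as low in 57-4, where both of its signals were above the floor.

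AI054617 had a log2 ratio of anthers to ovules of -3.28 (SE 0.33, limma adjusted p = 0.000231). It was at least 8.81-fold higher in ovules than in anthers of 57-4 and 10.7-fold higher in ovules than in anthers of Pima S-1. In Pima S-1, where both of its signals were above the floor, 0.716% of measured probe sets had a ratio as low. A probe set for the enzyme that makes FPP and XC14, for the enzyme that cyclizes it, were therefore both bright mainly in ovules in either genotype. Both calls were lost (limma adjusted p = 0.292 each) when probe sets under 50 on all arrays were also fitted, a setting in which 0 probe sets were called and 3275 had an unadjusted p under 0.05.

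XC1 was not called, with a log2 ratio of anthers to ovules of -0.58 (SE 0.30, limma adjusted p = 0.23). This fitted value is small because 3 of its 4 signals stood at the floor. In 57-4 it was at least 2.24-fold higher in ovules than in anthers, and in Pima S-1 both signals were under 50 and no fold could be given. The 57-4 bound fell short of 2-fold with a floor of 100 (log2 -0.17) and with scaling on the hybridization controls (log2 -0.86).

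DT466688 was not called either, with a log2 ratio of anthers to ovules of -0.16 (SE 0.46, limma adjusted p = 0.858), because the genotypes differed in direction. In 57-4 the signal was 2.80-fold higher in ovules than in anthers, a log2 ratio of -1.48. In Pima S-1 it was 2.26-fold higher in anthers than in ovules, a log2 ratio of 1.17. The gap between these ratios, 57-4 minus Pima S-1, was -2.66, and 18 of 17179 probe sets (0.105%) had a gap as low. With 1 array in each condition this gap has no test. The gap is also the anther genotype ratio less the ovule one, and the study had listed DT466688 from the anther contrast. Its rank here, and its place in the group described next, are therefore not independent of that list.

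An opposite tissue preference of that kind, at least 2-fold higher in ovules of 57-4 and at least 2-fold higher in anthers of Pima S-1, was found for 21 of 17179 probe sets (0.122%), DT466688 among them. The opposite pattern, at least 2-fold higher in anthers of 57-4 and in ovules of Pima S-1, was found for 0. Several of the 21 were dim, with signals under the floor of 50. Most of them were lowest on the Pima S-1 ovule array, which had the lowest median signal (54.6). The part of that array in these counts was not tested. A spermidine synthase-like sequence (DV849788), from the synthesis of polyamines and named after its values were seen, was also among the 21, with signals of 231.4 (57-4) and 322.1 (Pima S-1) in anthers and 932.3 (57-4) and 117.7 (Pima S-1) in ovules. In that sequence the 2 ovule arrays were farthest apart, whereas in DT466688 it was the 2 anther arrays.

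**Figure D2:**
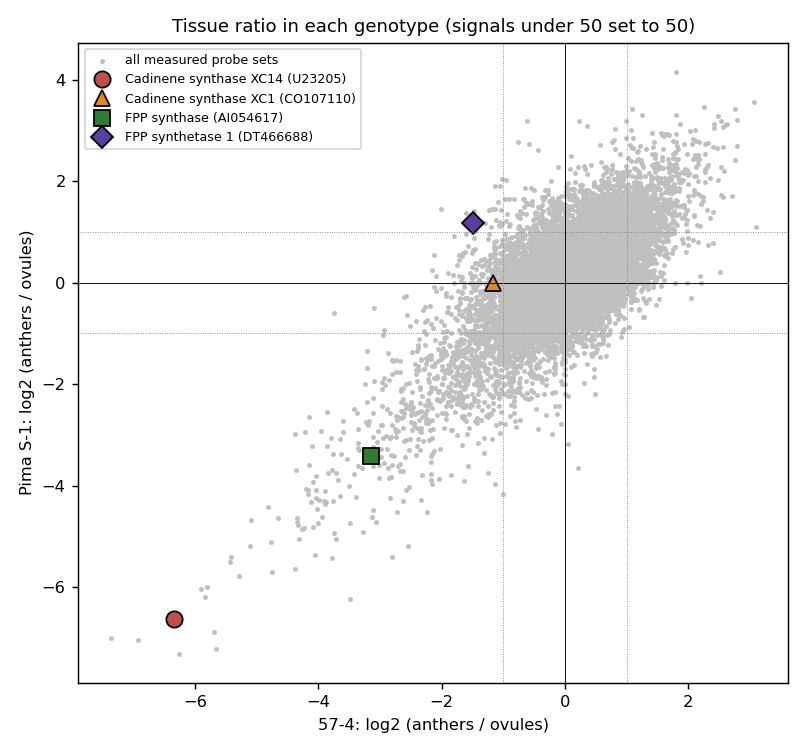
Log2 ratio of anthers to ovules in 57-4 (horizontal axis) and in Pima S-1 (vertical axis) for all measured probe sets in grey and the 4 named probe sets as large symbols, with signals under 50 set to 50 and dotted lines at 2-fold. XC14 (-6.35 and -6.63) and AI054617 (-3.14 and -3.42) lay far on the ovule side in both genotypes, DT466688 (-1.48 and 1.17) lay on opposite sides, and XC1 stands at 0 for Pima S-1 because both of its signals were under the floor.

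Counted within genotypes, 4 of 4 probe sets were at least 2-fold higher in ovules than in anthers of 57-4, against 7.26% of all measured probe sets, and 0 were higher in anthers, against 7.96%. The number higher in ovules of 57-4 was 3 with a floor of 100 and with scaling on the hybridization controls. It is not independent of the study's lists, which came from genotype contrasts on these same arrays. A high 57-4 ovule signal (XC1) or a low 57-4 anther signal (DT466688) also moves the 57-4 ratio towards ovules. In Pima S-1, 2 of 3 measured were at least 2-fold higher in ovules (8.6% of all) and 1 in anthers (12.7% of all). The median log2 ratio of anthers to ovules was -2.31 in 57-4 (0.12 over all measured probe sets) and -3.42 in Pima S-1 (0.20 over all). XC14 and AI054617 were the 2 of 4 that passed 2-fold towards ovules in both genotypes, as did 4.23% of all probe sets, and 0 of 4 did so towards anthers, as did 4.12% of all.

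The genotype ratios within each tissue are given as a description with no test, since each of the 4 probe sets was listed by the study from this contrast of the same arrays, and there was 1 array in each condition. XC14 and DT466688 came from the study's anther list, and XC1 and AI054617 from its ovule list. The genotype headings of the signals in the study's ovule list are exchanged relative to the deposited labels, and the deposited labels were used here. In anthers, 0 of 3 measured probe sets were at least 2-fold higher in 57-4 (1.59% of all) and 1 was at least 2-fold lower (2.71% of all). In ovules, 1 of 4 was at least 2-fold higher in 57-4 (4.46% of all) and 0 were lower (4.14% of all).

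XC14 was at least 1.20-fold higher in 57-4 anthers than in Pima S-1 anthers. The bound is small because the 57-4 signal, 60.2, lay just above the floor and the Pima S-1 signal, 14.5, below it. The size of this ratio is set by the floor, and it was 1.98 on the log2 scale with none. In ovules the log2 ratio was -0.01, so where this transcript was bright its signals in 57-4 and Pima S-1 were nearly equal, although scaling on the hybridization controls gave -0.39.

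Most other ovule-bright probe sets were, like XC14, brighter in 57-4 anthers. A group of 59 probe sets at least 10-fold higher in ovules was formed after the values were seen, with XC14 in it. Of the 59, 46 had the higher signal, with no floor, in 57-4 anthers, and so had 5 of the 7 that were at least 50-fold higher in ovules, XC14 again included, against 51.4% of all 24029 probe sets. The 46 also count probe sets with both anther signals under 50. Among the 38 of the 59 measured in anthers, 32 had a floored ratio above 0, against 50.1% of all measured. The 59 had a median anther signal of 63.4 (57-4) and 36.0 (Pima S-1), and their median ovule log2 ratio was -0.05. The part of this shared shift in the anther ratio of XC14 was not tested.

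XC1 was at least 2.24-fold higher in 57-4 ovules than in Pima S-1 ovules, a bound formed from 112.2 against the floor of 50. The log2 bound of 1.17 fell short of 2-fold with a floor of 100 (0.17) and with scaling on the hybridization controls (0.86), and it was -1.17 with the ovule arrays exchanged. Both anther signals were under 50, so no anther ratio is given.

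AI054617 was lower in 57-4 in both tissues. In anthers it was at least 1.54-fold lower in 57-4 than in Pima S-1, and in ovules it was 1.88-fold lower, a log2 ratio of -0.91. Neither passed 2-fold, although without a floor the anther log2 ratio was -2.16, and 5.22% of measured probe sets had an ovule ratio as low. Scaled on the hybridization controls its ovule log2 ratio was -1.29, and with the ovule arrays exchanged it was 0.91.

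DT466688 was 7.25-fold lower in anthers of 57-4 than in those of Pima S-1 (log2 -2.86), and 7 of 15900 measured probe sets (0.044%) had an anther ratio as low. In ovules its log2 ratio was -0.20. Its anther signals thus stood far apart and its ovule signals close together.

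**Figure D3:**
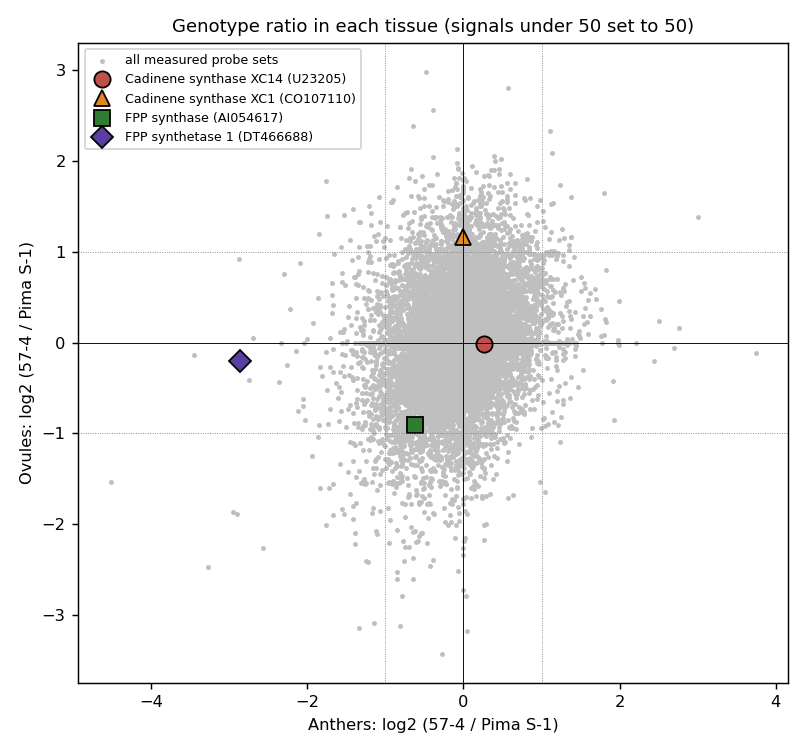
Log2 ratio of 57-4 to Pima S-1 in anthers (horizontal axis) and in ovules (vertical axis) for all measured probe sets in grey and the 4 named probe sets as large symbols, with signals under 50 set to 50 and dotted lines at 2-fold. DT466688 (-2.86 in anthers) stood at the edge of all probe sets, AI054617 was below 0 on both axes, XC14 lay near the centre, and XC1 passed 2-fold in ovules and stands at 0 for anthers because both of its signals were under the floor.

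The enzymes before FPP were represented by 3 described probe sets, each of them also taken from the study's genotype lists. Mevalonate diphosphate decarboxylase (CD486444), which makes isopentenyl diphosphate, had signals of 72.1 (57-4) and 141.7 (Pima S-1) in anthers and 285.7 (57-4) and 392.5 (Pima S-1) in ovules. It was called higher in ovules, with a log2 ratio of anthers to ovules of -1.73 (SE 0.35, limma adjusted p = 0.00979), although the call was lost when the fit had no genotype term (adjusted p = 0.109) or no filter (0.321). Phosphomevalonate kinase (AI727861), the enzyme just before it, had signals of 66.9 (57-4) and 125.0 (Pima S-1) in anthers and 132.3 (57-4) and 166.5 (Pima S-1) in ovules. Isopentenyl diphosphate isomerase 2 (DT554452), which makes the dimethylallyl diphosphate that FPP synthase starts from, had signals of 121.2 (57-4) and 147.3 (Pima S-1) in anthers and 164.0 (57-4) and 246.4 (Pima S-1) in ovules. These last 2 were not called between tissues (limma adjusted p = 0.282 and 0.317), although the ovule signal was the higher in each genotype.

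All 3 mevalonate pathway signals were lower in 57-4 than in Pima S-1 in both tissues, with none past 2-fold. Their log2 ratios of 57-4 to Pima S-1 lay between -0.97 and -0.28 in anthers, with a median of -0.90, and between -0.59 and -0.33 in ovules, with a median of -0.46. The medians of all measured probe sets were 0.0019 in anthers and 0.06 in ovules. Scaled on the hybridization controls, the 3 had medians of -1.38 in anthers, past 2-fold, and -0.83 in ovules. With a floor of 100 their medians were -0.32 in anthers and -0.46 in ovules. AI054617 had the same direction. All of these came from the study's genotype lists, and the direction was not particular to this pathway among the lists described below. Median log2 ratios in anthers and ovules were -0.58 and -0.67 for enzymes of other pathways fed by FPP or a larger prenyl diphosphate. They were -0.44 and -0.44 for P450 enzymes. They were -0.32 and -0.11 for the later enzyme classes, and -0.2 and 1.57 for WRKY factors.

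Other pathways fed by FPP or by the next larger prenyl diphosphate were represented by 3 probe sets, and 2 further described sequences could not be tied to a probe set. 24-Methylenesterol C-methyltransferase 2 (DT564348), of sterol synthesis, had signals of 246.7 (57-4) and 411.3 (Pima S-1) in anthers and 333.2 (57-4) and 775.8 (Pima S-1) in ovules. It was 2.33-fold lower in 57-4 ovules than in Pima S-1 ovules. CYP51G1 (DT048410), the sterol 14-demethylase, had signals of 1667.1 (57-4) and 1182.1 (Pima S-1) in anthers and 1856.1 (57-4) and 2193.3 (Pima S-1) in ovules. 9-cis-Epoxycarotenoid dioxygenase (CO086884), which cleaves carotenoids on the way to abscisic acid, had signals of 120.6 (57-4) and 180.1 (Pima S-1) in anthers and 115.9 (57-4) and 183.8 (Pima S-1) in ovules. The tissue test called 0 of these 3 (limma adjusted p between 0.0737 and 0.988), although the unadjusted p was under 0.05 for the first 2. Their log2 ratios of anthers to ovules lay between -0.67 and 0.01.

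Cytochrome P450 descriptions were found for 7 probe sets, none of them described as a gossypol pathway P450. The tissue test called 3 of 7 higher in ovules (7.39% of all tested) and 1 higher in anthers (8.42% of all). The anther-side call was CYP78A29 (DT563385), a member of a P450 family of reproductive and growing tissues, with signals of 980.0 (57-4) and 1659.6 (Pima S-1) in anthers and 372.8 (57-4) and 743.2 (Pima S-1) in ovules (log2 ratio of anthers to ovules 1.28, SE 0.17, limma adjusted p = 0.00126). A P450-like sequence (DT463176) was called higher in ovules, with signals of 45.9 (57-4) and 93.3 (Pima S-1) in anthers and 173.7 (57-4) and 262.0 (Pima S-1) in ovules (-1.64, SE 0.39, limma adjusted p = 0.0209). The other 2 ovule-side calls, DT465682 and DN781299, both described as P450 DDWF1, had log2 ratios of anthers to ovules of -4.45 and -2.77 and were named after their values were seen. Between genotypes 0 of 7 passed 2-fold in either tissue. Of all measured probe sets, 1.59% passed it upwards in 57-4 anthers and 2.71% downwards. For 57-4 ovules these shares were 4.46% and 4.14%. With shares this small, a count of 0 among 7 does not set the list apart. The median log2 ratio was -0.44 in anthers (0.0019 over all measured) and -0.44 in ovules (0.06 over all). The 7 were drawn from the study's genotype lists, so these values are not independent of that contrast.

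Probe sets of the later enzyme classes were matched by class name only, and the 10 found include enzymes of other pathways such as cinnamyl alcohol dehydrogenase. The tissue test called 5 of them higher in ovules (7.39% of all tested) and 1 higher in anthers (8.42% of all). The 2-oxoglutarate-dependent dioxygenase (DN827346) was among the 5 and is described with the pattern of XC14. Alcohol dehydrogenase class-3 (AI729704), which handles formaldehyde bound to glutathione, had signals of 65.1 (57-4) and 191.5 (Pima S-1) in anthers and 195.9 (57-4) and 698.5 (Pima S-1) in ovules. It was higher in ovules (log2 ratio of anthers to ovules -1.73, SE 0.32, limma adjusted p = 0.0067), and it was lower in 57-4 in both tissues, by 2.94-fold in anthers and 3.57-fold in ovules.

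Alcohol dehydrogenase A (CO122895) was the anther-side call, with signals of 106.0 (57-4) and 537.0 (Pima S-1) in anthers and 7.4 (57-4) and 25 (Pima S-1) in ovules (log2 ratio of anthers to ovules 2.25, SE 0.54, limma adjusted p = 0.0214). It was 5.07-fold lower in 57-4 anthers than in Pima S-1 anthers. Another probe set with the same description (BE054959), named after its values were seen, had the opposite tissue order, with signals of 2121.6 (57-4) and 758.0 (Pima S-1) in anthers and 15104.1 (57-4) and 14413.6 (Pima S-1) in ovules (-3.54, SE 0.30, limma adjusted p = 7.4e-05). Its anther signal was 2.80-fold higher in 57-4 while its ovule signals were nearly equal. Past 2-fold between genotypes were 2 higher (1.59% of all measured) and 3 lower (2.71%) in 57-4 among the 9 of the list measured in anthers, and 0 higher (4.46%) and 1 lower (4.14%) among the 9 measured in ovules, in a list drawn from the study's calls on this contrast.

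WRKY factors were represented by 6 probe sets, none of them tied here to GaWRKY1. WRKY transcription factor 2 (DT467159) had signals of 327.6 (57-4) and 250.8 (Pima S-1) in anthers and 833.4 (57-4) and 200 (Pima S-1) in ovules, and was 4.17-fold higher in 57-4 ovules than in Pima S-1 ovules. WRKY transcription factor 6 (DT463720) had signals of 404.4 (57-4) and 290.0 (Pima S-1) in anthers and 1786.4 (57-4) and 539.2 (Pima S-1) in ovules, and was 3.31-fold higher in 57-4 ovules. Past 2-fold in ovules were 4 higher (4.46% of all measured) and 1 lower (4.14%) of the 6 in 57-4, around a median of 1.57 on the log2 scale, and in anthers 0 higher (1.59%) and 1 lower (2.71%), around a median of -0.20. All 6 were described because the study had listed them for this contrast. The tissue test called 2 higher in ovules (7.39% of all tested) and 1 higher in anthers (8.42%). Of the cadinene synthases, XC1 had an ovule ratio on the same side as these 4 factors, and XC14 had a ratio near 0.

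**Figure D4:**
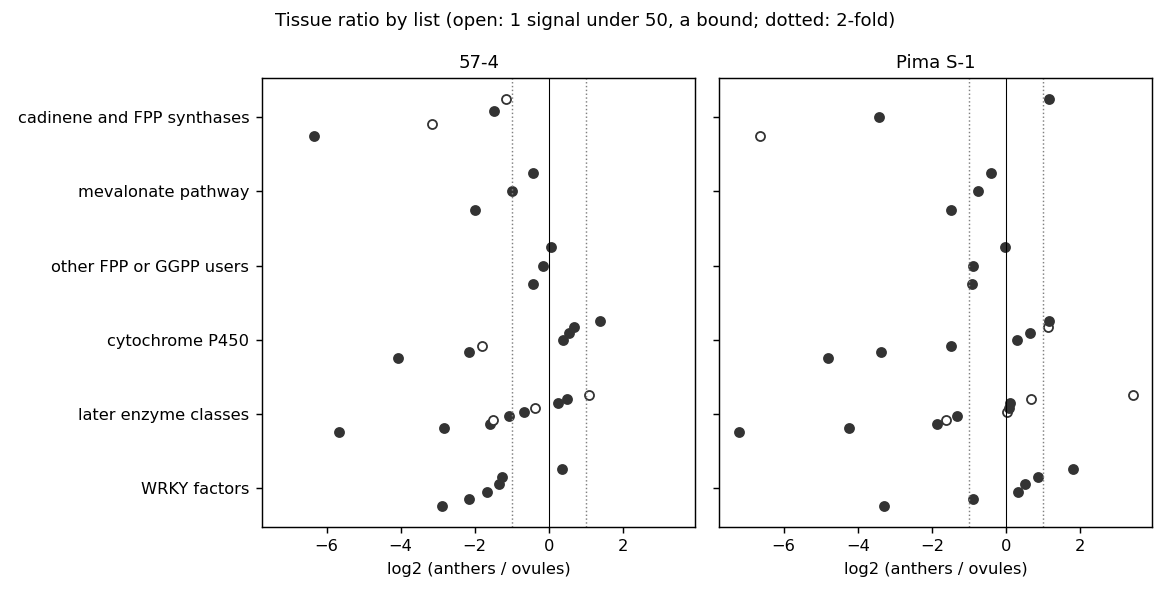
Log2 ratio of anthers to ovules in 57-4 (left) and in Pima S-1 (right) for each probe set of the 6 lists, with open circles where 1 signal was under 50 and the ratio is a bound, and dotted lines at 2-fold. The cadinene and FPP synthases and the later enzyme classes reach farthest to the ovule side, and the mevalonate pathway lies below 0 in both genotypes.

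**Figure D5:**
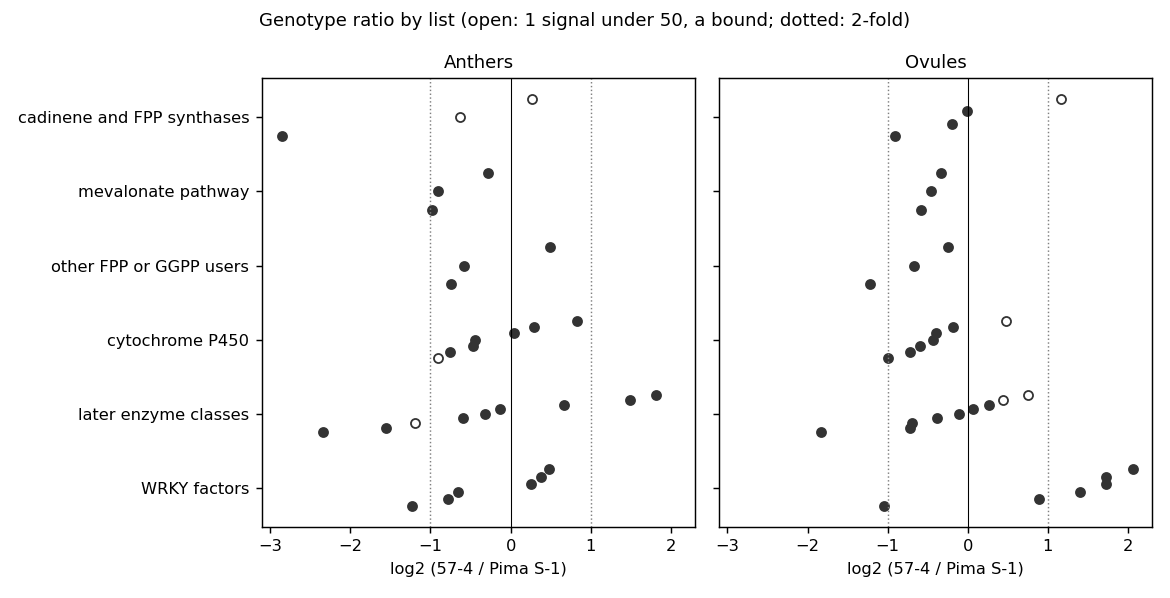
Log2 ratio of 57-4 to Pima S-1 in anthers (left) and in ovules (right) for each probe set of the same 6 lists, with open circles for bounds and dotted lines at 2-fold. The 3 mevalonate pathway probe sets lie below 0 in both tissues, and 4 of 6 WRKY factors lie beyond 2-fold on the 57-4 side in ovules.

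The described probe sets most like each of the 4 were found by the Euclidean distance between log2 signals centred on their mean, over the 4 arrays and 809 candidates. They were thus picked on the same values that are given for them. All candidates were described because the study had listed them between genotypes. A tissue or genotype order that a neighbour shares is therefore no result apart from that choice. For XC14 the nearest was the 2-oxoglutarate-dependent dioxygenase (DN827346) at a distance of 1.11, with signals of 184.1 (57-4) and 52.3 (Pima S-1) in anthers and 9306.6 (57-4) and 7761.7 (Pima S-1) in ovules. Its log2 ratio of anthers to ovules was -6.44 (SE 0.30). Like XC14 it was higher in 57-4 anthers than in Pima S-1 anthers, by 3.52-fold. A dioxygenase of this class acts in the gossypol pathway, but the description does not say which member this is. The next were DT047683, described as HyPRP1, at 1.82, with signals of 278.7 (57-4) and 219.7 (Pima S-1) in anthers and 5569.2 (57-4) and 7330.7 (Pima S-1) in ovules, and a pathogenesis-related protein 10 (CD485617) at 1.96.

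For AI054617 the nearest was another probe set described as WRKY transcription factor 2 (DT463913) at a distance of 0.22, with signals of 406.4 (57-4) and 639.7 (Pima S-1) in anthers and 3013.3 (57-4) and 6225.4 (Pima S-1) in ovules. Its log2 ratio of anthers to ovules was -3.09 (SE 0.17), and it was lower in 57-4 in both tissues. Oxygen-evolving enhancer protein 1 (CO081952), of photosystem II, followed at 0.51 and an acidic chitinase (DN827466), a defence enzyme, at 0.74.

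For DT466688 the nearest were an ethylene responsive element binding protein C4 (DR462212) at 0.66, a CCR4 associated factor 1-related protein (CA992956) of mRNA decay at 0.67, and a hypothetical protein (DT462950) at 0.68. DR462212 had signals of 458.2 (57-4) and 2022.9 (Pima S-1) in anthers and 778.0 (57-4) and 830.3 (Pima S-1) in ovules, and CA992956 had 518.5 (57-4) and 3481.2 (Pima S-1) in anthers and 829.1 (57-4) and 1105.8 (Pima S-1) in ovules. All 3 shared its low 57-4 anther signal and its high Pima S-1 anther signal, which the choice by distance brings about. None of these neighbours belonged to the gossypol pathway lists.

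For XC1 the nearest were a UGT protein (DW499030) at 0.43, a calcium-dependent protein kinase (DT466991) at 0.46 and a dehydrin (CO110877) at 0.52. The kinase had signals of 1392.8 (57-4) and 1190.5 (Pima S-1) in anthers and 2530.0 (57-4) and 894.2 (Pima S-1) in ovules, so its highest signal was that of 57-4 ovules. These distances for XC1 rest on 1 signal above the floor.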

How the data were processed

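The deposited values are intensities, MAS5 signals computed and scaled by the authors, for 24132 probe sets on 4 arrays, of which 103 are controls. Names were joined through the GenBank identifiers of the study's lists. The members and lists were chosen with earlier results of these data known. The lists were formed by words in the descriptions. Those named are all members and all probe sets of the mevalonate list and of the list of other pathways fed by FPP. Also named are, in each other list, the 2 with the largest genotype ratio among those with a signal of at least 200, and the 3 nearest in pattern. Others are said to be named after their values were seen.

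Signals under 50 were set to 50. The tissue fit used limma 3.58.1 in R 4.3.3, with an intensity trend, and everything else Python 3.11.15. The fit was tested on simulated data for the tissue contrast over 17179 probe sets. There 100 of 100 changes of 3 and 100 of 100 of 6 on the log2 scale were called, with 37 false calls. False calls were thus a larger share of the simulated calls than the threshold on the adjusted p sets. The simulation therefore gives no assurance that false calls on the real arrays stay within that threshold. Arrays were not replicated, so their number limits the precision. Alternatives were no floor (adding 1), a floor of 100, quantile normalization, scaling on hybridization controls, median centring, no filter, no genotype term, no trend, exchanged ovule arrays, and leaving out shared-probe designs. No sequence was used here.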

Additional observations from a re-analysis of the deposited data

Results flagged for a closer look

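Some ratios pointed opposite ways in the 2 tissues or in the 2 genotypes. With 1 array in each condition none of these differences was tested. The XC14 genotype ratio was 0.27 in anthers, a bound, and -0.01 in ovules, a difference of 0.28 on the log2 scale. The CYP51G1 (DT048410) genotype ratio was 0.50 in anthers and -0.24 in ovules, a difference of 0.74. The DT466688 ratio of anthers to ovules was -1.48 in 57-4 and 1.17 in Pima S-1, a difference of -2.66. The DT467159 ratio of anthers to ovules was -1.35 in 57-4 and 0.33 in Pima S-1, a difference of -1.67, and that of 9-cis-epoxycarotenoid dioxygenase (CO086884) was 0.06 in 57-4 and -0.03 in Pima S-1, a difference of 0.087.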

How the results depend on the processing

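The tissue calls of XC14 and AI054617 held with no floor, a floor of 100, quantile normalization, scaling on the hybridization controls, no genotype term and no trend. They were lost with no filter, where all 24029 probe sets entered, also those floored on all arrays, and the adjusted p was 0.292 for both and 0.321 for CD486444 (limma). CD486444 also lost its call with no genotype term (0.109). That unfiltered fit called 0 probe sets higher in anthers and 0 in ovules, with 3275 at an unadjusted p under 0.05. The other counts past 1.5 times of the value given were, for anthers, 926 with quantile normalization, 2803 with scaling on the hybridization controls, 146 with no genotype term and 832 with no trend, and, for ovules, 278 with no genotype term and 792 with no trend.

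Directions turned for DT466688 between tissues (0.078, adjusted p = 0.917, with scaling on the hybridization controls), for CO086884 (-0.12, adjusted p = 0.847, with quantile normalization) and for XC1 in ovules (-1.17 with the ovule arrays exchanged) (DT466688 and CO086884 were called in none of the fits run). Exchanging the ovule arrays turns every ovule genotype ratio, that of AI054617 to 0.91. Leaving out shared-probe designs, which removes XC14, AI054617 and DT466688 themselves, turned some list medians. The median of the later enzyme classes between tissues of Pima S-1 became 0.09, over 3 probe sets. Between genotypes in anthers, that of the WRKY factors became 0.39, which is 1 probe set. That of the ovule, fibre and seed words became 0.33 in anthers, over 3. Of the 3 named probe sets measured in anthers, 1 was at least 2-fold higher and 2 were lower in 57-4 without a floor. In 57-4 ovules 0 were higher with a floor of 100, with scaling on the controls and with the arrays exchanged, and 1 was lower with the last 2 of these. With median centring 0 were at least 2-fold higher in anthers of Pima S-1. The median anther log2 ratio of the ovule-bright probe sets measured there was 0.41 over 38, and alternatives chosen after seeing the data gave 0.50 over 35 with quantile normalization, 0.22 over 29 with scaling on the controls and 0.24 over 20 with a floor of 100. The genotype term in the tissue fit sets the 2 arrays of a genotype side by side. No other paired analysis was possible because each group has 1 array.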
